A study of Ovis aries with 36 samples.

Results

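Integrin beta subunits and TGF-beta ligands were followed in 3 fetal sheep tissues through 9 listed genes: the integrin beta subunits ITGB1, ITGB3, ITGB4, ITGB5, ITGB6 and ITGB8, and the ligands TGFB1, TGFB2 and TGFB3. The genes were listed with earlier results of these data known. Loci were assigned to them by name alone, and counts of loci that carried the same name were summed. Of the 9 listed genes, 8 had a locus of that name in the count tables, among 23208 gene names found in any tissue, and ITGB3 was not analysed here. The data were 36 RNA-Seq libraries of the longissimus dorsi, of subcutaneous fat and of perirenal fat, with 12 libraries per tissue. Polypay ewes bred to a single sire received 1 of 3 diets from mid to late gestation, and fetuses were collected in late gestation. The main energy source was corn (CN), dried corn distillers grains (DG) or alfalfa haylage (HY, hay in the labels). Each tissue had 4 pools of fetal RNA per diet, 2 from female fetuses (F1, F2) and 2 from male fetuses (M1, M2). The RNA came from 26 fetuses of 15 dams, some dams had fetuses in more than 1 pool, and all pools shared the sire, so the spread below is that between pools and not between unrelated animals.

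Integrins are cell surface receptors made of 1 alpha and 1 beta subunit that attach cells to the extracellular matrix. TGF-beta is secreted in a latent form, in which the ligand is held by its own propeptide and, through it, by latent TGF-beta binding proteins (LTBPs) in the matrix. Integrins that pair the alpha subunit ITGAV with ITGB6 or ITGB8 bind the propeptides of TGFB1 and TGFB3 and release active ligand. Active TGF-beta signals through the receptors TGFBR1 and TGFBR2 to SMAD2 and SMAD3. TGF-beta is known for driving matrix production by fibroblasts and for restraining the differentiation of muscle precursors and of preadipocytes.

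Total counts ranged from 6705766 to 29625146 per library, with a median of 14406914. The labelled tissues were checked by marker genes, as CPM (read counts scaled to library size) summed over each list in each pool. Skeletal muscle markers summed to between 98801 and 145303 CPM in muscle and to between 36.0 and 770.8 CPM in perirenal adipose tissue. In the subcutaneous pools the same sum ran from 804.1 to 134133 CPM over 14 of 19 listed markers, none of which was at 0 in all pools. On a scale common to all 36 libraries, the subcutaneous pools DG F1 and HY F2 reached the lowest muscle library, and the main subcutaneous results of the 8 genes are also given without them. Adipocyte markers summed to 77.7 to 167.6 CPM in muscle, 2309.9 to 11825 CPM in subcutaneous and 7237 to 18869 CPM in perirenal adipose tissue. In bulk tissue, a lower number of cells of 1 type and less RNA per cell cannot be told apart.

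Positions are those of Oar_v3.1, and each locus is given by its start and end without a division into exons and introns. In muscle, ITGB6 lay on chromosome 2 from 148344238 to 148488545 and ITGB8 on chromosome 4 from 29066165 to 29161674. The ligands lay on chromosome 14 from 49659751 to 49675648 (TGFB1), chromosome 12 from 19934864 to 20030242 (TGFB2) and chromosome 7 from 84193537 to 84218446 (TGFB3). ITGB1 lay on chromosome 13 from 18981089 to 19024665, ITGB4 on chromosome 11 from 54847755 to 54874496 and ITGB5 on chromosome 1 from 187474606 to 187581008. Locus ends differed between the count tables of the tissues. The ITGB6 locus was 144307 bp long in muscle and 83970 bp in perirenal adipose tissue, where it started at 148402141, and ITGB1 was 43576 bp long in muscle and 25460 bp in subcutaneous adipose tissue. Second loci named ITGB1 and TGFB2 held 0 counts. Other loci were listed at the positions of ITGB8 in muscle and of TGFB2 in all 3 tissues, and how the counting treated strand is not given in the sources used here, so reads shared with a partner locus cannot be told apart.

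The first comparison was between tissues. The clearest contrast was that of ITGB6 and ITGB8, the subunits that release TGFB1 and TGFB3 from their latent complexes. Both were present in muscle and subcutaneous adipose tissue and close to 0 in perirenal adipose tissue. TGFB2 was also higher in muscle and subcutaneous adipose tissue, and TGFB3 was higher in subcutaneous adipose tissue than in both other tissues. TGFB1, ITGB1 and ITGB5 were higher in perirenal adipose tissue, and the ITGB1 locus was shorter in subcutaneous adipose tissue than in the other tissues. Tissue levels in the next paragraphs are CPM on the common scale of all 36 libraries, and tests are from edgeR's quasi-likelihood test on all libraries, averaged over diets and with the fetal pool as a block. At FDR ≤0.05, 4 of 8 genes differed between muscle and subcutaneous adipose tissue, where 72.1% of the 13283 genes tested did. Between muscle and perirenal adipose tissue 7 of 8 differed (80.3% of all genes), and between the adipose depots 7 of 8 (66.9% of all genes). Since most genes tested differed between these tissues, the counts say little about the 8 genes as a group, and their sizes and order are described instead. The common scale (TMM) takes most genes as unchanged between libraries. The sizes of small tissue differences, such as those of ITGB1, ITGB5 and TGFB1, therefore depend on this scaling. Without the subcutaneous pools DG F1 and HY F2, all 8 genes kept direction and side of FDR ≤0.05 between muscle and subcutaneous adipose tissue, and so did the 7 genes other than ITGB6 between the depots. The subcutaneous pools kept included CN F2, DG F2 and DG M2, with skeletal muscle marker sums of 74528, 61100 and 85893 CPM on the common scale. Leaving out DG F1 and HY F2 thus did not remove muscle RNA from the depot.

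ITGB6 ranged from 168.5 to 268.3 CPM in muscle, with a median of 191.9 and a coefficient of variation of 14.4%. In subcutaneous adipose tissue it ranged from 1.57 to 246.8 CPM, with a median of 42.8 and a coefficient of variation of 106.2%. In perirenal adipose tissue 11 of 12 pools had 0 counts of ITGB6 and the pool CN M2 had 1 count. Muscle pools were thus close together, 3 subcutaneous pools (DG F1, DG F2 and DG M2) fell within the muscle range and the other 9 below it, and perirenal pools did not overlap with the other tissues. The log2 fold change from muscle to subcutaneous adipose tissue was -2.17 ± 0.67 (SE, FDR = 0.00961 by edgeR), and -2.645 ± 0.72 (FDR = 0.00558) without the pools DG F1 and HY F2 of the subcutaneous depot. Per total counts, ITGB6 was 19152 times higher in muscle than in perirenal adipose tissue (35407 counts against 1, exact 95% interval 3437 to 756490), and 11570 times higher in subcutaneous than in perirenal adipose tissue (14067 counts against 1, interval 2076 to 457021). These intervals cover counting error only. Subcutaneous counts ran from 14 in DG M1 to 3224 in DG F2, so the second ratio rests mostly on pools with high ITGB6. The ITGB6 locus was 83970 bp long in perirenal and 143917 bp in subcutaneous adipose tissue, and the part of locus length was not tested.

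ITGB8 ranged from 4.49 to 10.7 CPM in muscle (median 6.06), from 6.20 to 69.1 CPM in subcutaneous adipose tissue (median 18.9) and from 0.0975 to 1.05 CPM in perirenal adipose tissue (median 0.346). Perirenal levels rest on 1 to 15 counts per pool and 56 counts in all, yet every perirenal pool was below every pool of the other tissues. Muscle and subcutaneous pools overlapped. ITGB8 was higher in subcutaneous adipose tissue than in muscle (log2 fold change 1.46 ± 0.25, FDR = 1.75e-05 by edgeR), and the mean was 3.28 times that of muscle. Without the subcutaneous pools DG F1 and HY F2 the log2 fold change was 1.28 ± 0.24 (FDR = 5.13e-05) and the mean was 2.57 times that of muscle. From subcutaneous to perirenal adipose tissue the log2 fold change was -5.61 ± 0.34 (FDR = 7.51e-13).

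**Figure D1:**
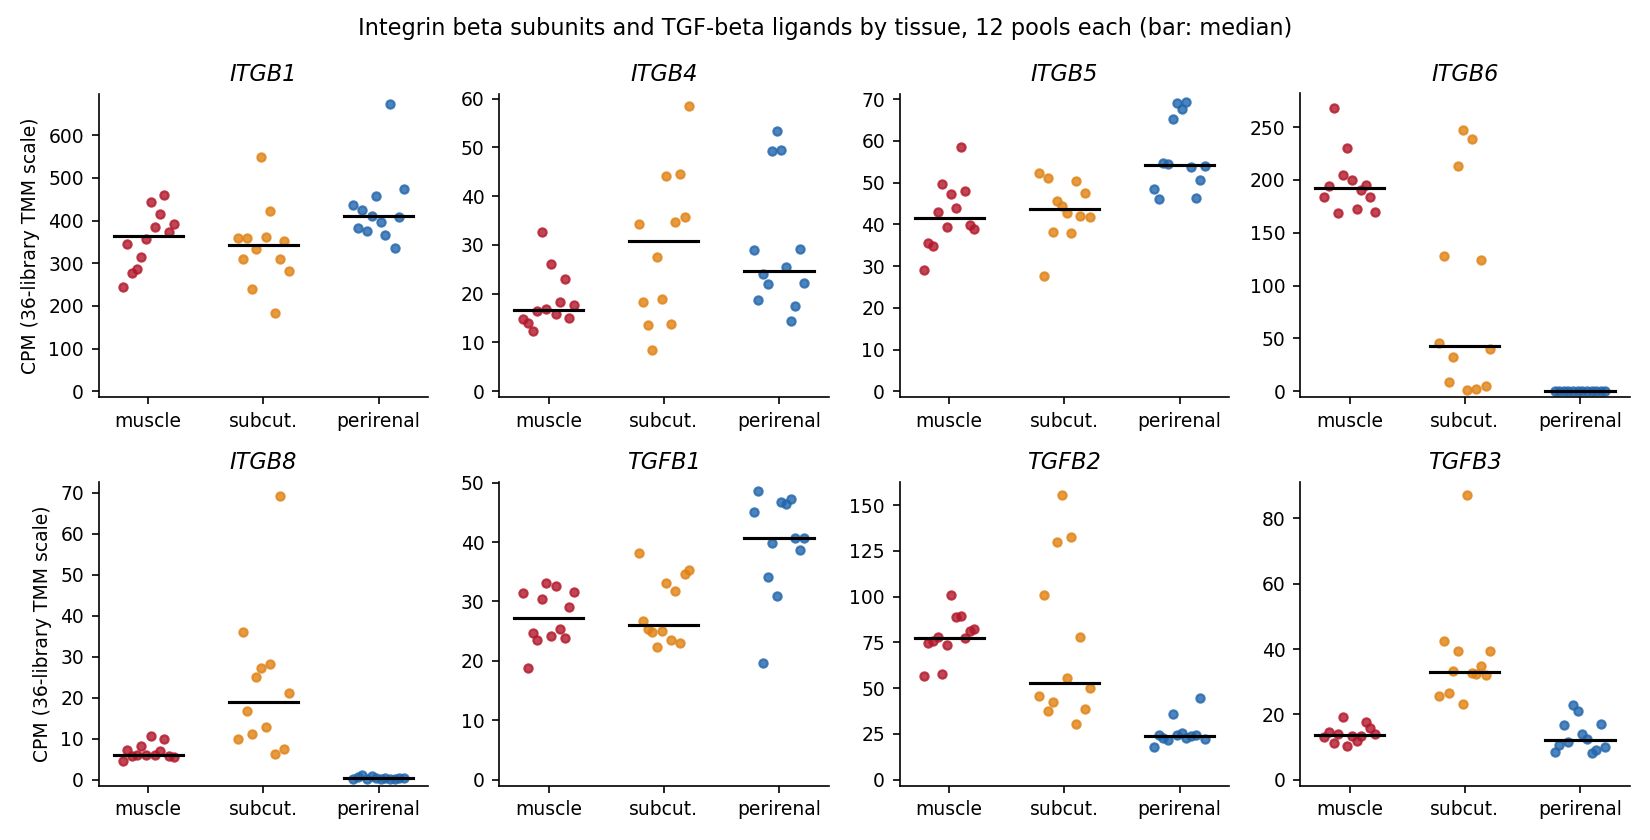
CPM on the scale common to all 36 libraries (y axis, from 0, a separate range in each panel) for 8 genes in muscle, subcutaneous and perirenal adipose tissue (x axis). Points are the 12 pools of a tissue and bars are medians. ITGB6 and ITGB8 lie near 0 in all 12 perirenal pools, while ITGB6 ranges from 1.57 to 246.8 CPM among the subcutaneous pools.

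The wide range of ITGB6 among subcutaneous pools moved with the skeletal muscle markers. ITGB6 was 1.57 CPM in DG M1, 2.11 in HY F1, 4.52 in HY M1 and 9.17 in CN M1, the 4 pools with the lowest marker sums, which ranged from 978.6 to 4315 CPM on the common scale. In the 5 pools with the highest marker sums, from 61100 to 156387 CPM, ITGB6 ranged from 123.7 to 246.8 CPM. Over the 12 subcutaneous pools and on log2 CPM within the tissue, Pearson's r between ITGB6 and the marker sum was 0.977 (permutation p = 2e-05, the smallest that 100000 resamples could give, adjusted over 14 relations 0.00028) and Spearman's rho was 0.881 (permutation p = 0.0003, adjusted 0.0042). It was 0.952 without the 2 pools farthest from the median marker sum and 0.986 without DG F1 and HY F2. With 4 pools per diet, no relation within a diet was computed.

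ITGB8 also moved with the same markers. Its r with the marker sum was 0.816 (permutation p = 0.00146, adjusted 0.00525), rho was 0.839 (permutation p = 0.00132, adjusted 0.00775), and r was 0.810 without the 2 farthest pools and 0.801 without DG F1 and HY F2. In the 4 subcutaneous pools with the lowest marker sums, ITGB8 was still 6.20 to 16.7 CPM, above the highest perirenal value of 1.05 CPM and in the range of the muscle pools or above it. Of the 12 subcutaneous pools, 9 lay above the highest muscle pool for ITGB8, with the highest values in CN F2 (36.1 CPM) and HY F2 (69.1 CPM). Markers of Schwann cells and nerve (8 of 8 found, none at 0 in all pools) were also high in these pools, with sums of 2532.9 CPM in CN F2 and 7662.8 CPM in HY F2, where the other subcutaneous pools had 143.9 to 860.5 CPM apart from 3297.3 CPM in CN M1. CN M1 had the highest ITGB8 (16.7 CPM) of the 4 pools with the lowest muscle marker sums. Other subcutaneous pools did not follow the nerve markers. DG F1, DG F2, DG M2 and HY M2 had more ITGB8 than CN M1, at 25.1, 27.2, 28.2 and 21.2 CPM. Their nerve sums were 345.3, 304.2, 768.9 and 338.2 CPM. Among the subcutaneous DG pools, M1 had the highest nerve sum (860.5 CPM) and the lowest ITGB8 (12.8 CPM). In muscle, DG M1 had both the highest nerve sum (2384.6 CPM, against 515.8 to 1026.5 CPM in the others) and the highest ITGB8 (10.7 CPM), and in perirenal adipose tissue the nerve sum was 60.7 to 263.9 CPM. These markers were read after the ITGB8 values were seen, and their part in ITGB8 was not tested.

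**Figure D2:**
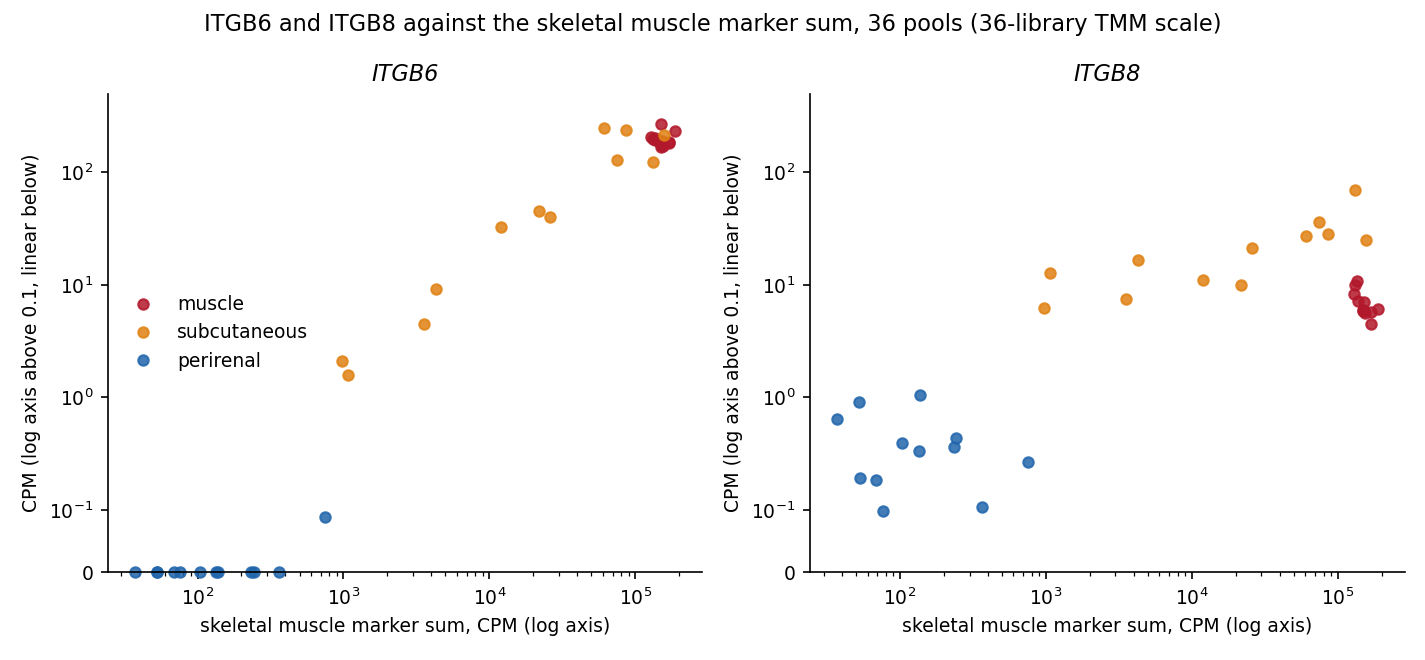
ITGB6 (left) and ITGB8 (right) in CPM (y axis, logarithmic above 0.1 and linear below) against the summed CPM of 14 skeletal muscle markers (x axis, logarithmic) in 36 pools, on the scale common to all libraries. Each point is 1 pool, coloured by tissue. ITGB6 climbs from 1.57 CPM with the marker sum among subcutaneous pools and is at 0 in 11 perirenal pools, whereas ITGB8 is at least 6.20 CPM in all subcutaneous pools.

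ITGB6 is best known from epithelia, so markers of epithelium and epidermis were read beside it. They summed to 12.9 to 27.2 CPM in muscle (9 of 11 found), 5.50 to 34.0 CPM in subcutaneous adipose tissue (8 of 11) and 1.87 to 11.7 CPM in perirenal adipose tissue (8 of 11, with TP63 at 0 in all pools). Among subcutaneous pools the sum was 23.98 CPM in DG F1, 33.95 CPM in DG F2, 32.7 CPM in DG M2 and 27.4 CPM in HY F2, all pools with high ITGB6, and 5.50 CPM in HY M1 and 5.86 CPM in CN M1, where ITGB6 was low. In DG M1, the lowest pool for ITGB6, it was 16.8 CPM. Of the defining markers, KRT5 did not exceed 0.104 CPM and EPCAM did not exceed 0.407 CPM in any muscle pool, whereas CDH1 was 1.51 to 6.86 CPM in muscle and at most 0.589 CPM in perirenal adipose tissue, and KRT8 reached 5.265 CPM in muscle and 5.62 CPM in perirenal adipose tissue. The part of epithelial cells in ITGB6 was not tested. Of the 10688 named genes searched in the subcutaneous pools, those most like ITGB6 were ATP1B4 (r = 0.996 on log2 CPM over 12 pools), MYBPC1 (r = 0.995) and RYR1 (r = 0.9945). MYBPC1 is a myosin binding protein and RYR1 the calcium release channel of skeletal muscle.

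Among the ligands, TGFB2 ranged from 56.4 to 101.0 CPM in muscle (median 77.6), 30.3 to 155.7 CPM in subcutaneous adipose tissue (median 52.7) and 17.7 to 44.9 CPM in perirenal adipose tissue (median 24.03). Muscle and perirenal pools did not overlap, and subcutaneous pools overlapped with both. The mean was 3.02 times higher in muscle and 2.89 times higher in subcutaneous adipose tissue than in perirenal adipose tissue, with log2 fold changes to perirenal of -1.62 ± 0.18 (FDR = 2.64e-08) and -1.39 ± 0.18 (FDR = 6.63e-07) by edgeR. Muscle and subcutaneous adipose tissue were not distinguished for TGFB2 (-0.23 ± 0.18, FDR = 0.248).

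TGFB2 also moved with the skeletal muscle markers among subcutaneous pools, with r = 0.7975 (permutation p = 0.0015, adjusted 0.00525), rho = 0.783 (permutation p = 0.00384, adjusted 0.0134), r = 0.855 without the 2 farthest pools and r = 0.775 without DG F1 and HY F2. The named genes most like TGFB2 in these pools were IDE (r = 0.981), PCGF5 (r = 0.9805) and TARS (r = 0.9745). IDE encodes the insulin-degrading enzyme and TARS a threonyl-tRNA synthetase.

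TGFB3 ranged from 23.1 to 87.2 CPM in subcutaneous adipose tissue (median 32.9), 10.4 to 19.1 CPM in muscle (median 13.6) and 8.09 to 22.9 CPM in perirenal adipose tissue (median 12.1). All subcutaneous pools lay above all pools of the other 2 tissues. The log2 fold change was 1.37 ± 0.16 from muscle to subcutaneous (FDR = 1.02e-07) and -1.46 ± 0.17 from subcutaneous to perirenal adipose tissue (FDR = 7.26e-08) by edgeR. Muscle and perirenal adipose tissue were not distinguished (-0.09 ± 0.16, FDR = 0.621).

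TGFB1 had medians of 27.2 CPM in muscle (18.8 to 33.2), 26.0 CPM in subcutaneous (22.3 to 38.1) and 40.7 CPM in perirenal adipose tissue (19.7 to 48.6). The perirenal pools CN M1 (19.7 CPM) and DG F2 (30.9 CPM) lay within the range of muscle, and DG F2 and CN M2 (34.1 CPM) within that of subcutaneous adipose tissue, below which CN M1 lay. TGFB1 was higher in perirenal adipose tissue than in muscle (0.53 ± 0.11, FDR = 0.000166) and than in subcutaneous adipose tissue (0.48 ± 0.11, FDR = 0.000721), and muscle and subcutaneous adipose tissue were not distinguished (0.05 ± 0.11, FDR = 0.690).

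ITGB5, a partner of ITGAV that binds vitronectin, had medians of 41.4 CPM in muscle (29.1 to 58.5), 43.6 CPM in subcutaneous (27.6 to 52.3) and 54.2 CPM in perirenal adipose tissue (46.1 to 69.3). It was higher in perirenal adipose tissue than in muscle (0.42 ± 0.09, FDR = 0.0001105) and subcutaneous adipose tissue (0.38 ± 0.09, FDR = 0.000547), with overlap of the pools in both cases. ITGB4, the beta subunit of the laminin receptor in hemidesmosomes, had medians of 16.7 CPM in muscle (12.3 to 32.6), 30.8 CPM in subcutaneous (8.46 to 58.5) and 24.7 CPM in perirenal adipose tissue (14.3 to 53.3). ITGB4 was higher in subcutaneous adipose tissue (0.53 ± 0.16, FDR = 0.00433) and in perirenal adipose tissue (0.60 ± 0.16, FDR = 0.00139) than in muscle, again with overlap, and the depots were not distinguished (0.06 ± 0.16, FDR = 0.735).

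ITGB1, the beta subunit shared by most collagen, laminin and fibronectin receptors, had medians of 365.0 CPM in muscle (243.8 to 459.2), 342.3 CPM in subcutaneous (184.3 to 549.2) and 410.2 CPM in perirenal adipose tissue (336.9 to 673.6). It was higher in perirenal than in subcutaneous adipose tissue (0.36 ± 0.12, FDR = 0.0112). The ITGB1 locus was 25460 bp long in subcutaneous and 43577 bp long in perirenal adipose tissue. The part of locus length in this difference was not tested. The difference between muscle and perirenal adipose tissue (0.27 ± 0.12, FDR = 0.04425) was past the threshold by edgeR but FDR ranged from 0.0513 to 0.101 without any 1 of CN F1, CN M1, CN M2, DG F1, DG M2, HY F1 and HY M2.

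Partner and pathway genes were read on the same scale, and the alpha partners were named for their pairing after their values were seen. ITGAV, the alpha subunit that pairs with ITGB5, ITGB6 and ITGB8, was lower in perirenal adipose tissue (126.9 CPM) than in muscle (166.9 CPM, log2 fold change -0.40 ± 0.07, FDR = 3.14e-05). ITGA6, the alpha partner of ITGB4, was higher in perirenal adipose tissue (414.5 CPM) than in muscle (202.3 CPM, log2 fold change 1.03 ± 0.10, FDR = 1.37e-09). The adipose depots were not distinguished for either gene. ITGAV was 132.0 CPM in subcutaneous adipose tissue (to perirenal -0.05 ± 0.07, FDR = 0.529) and ITGA6 was 399.1 CPM (0.10 ± 0.10, FDR = 0.372). At FDR ≤0.05, where 80.3% of all genes differed between muscle and perirenal adipose tissue, 5 of 14 integrin alpha subunits tested were higher and 6 lower in perirenal adipose tissue. Of 3 other beta subunits 2 were higher, of 5 receptors 2 were higher and 1 lower, of 13 SMAD relay genes 4 were higher and 9 lower, and of 19 genes of latency and activation 7 were higher and 6 lower. Of 16 TGF-beta target genes 7 were higher and 8 lower, of 17 genes that link integrins to actin 5 and 9, and of 14 hemidesmosome and laminin genes 5 and 5. With so many genes differing, these counts say little about the lists. Among genes named after their values were seen, SMAD3 averaged 94.7 CPM in muscle, against 9.07 CPM in the subcutaneous depot and 2.26 CPM in the perirenal depot, with a log2 fold change from muscle to perirenal of -5.42 ± 0.17 (FDR = 2.84e-18), while SMAD2 changed by -1.10 ± 0.07 (FDR = 7.03e-13). LTBP2, a matrix protein of the latent binding family, went the other way, from 12.9 CPM in muscle to 107.4 CPM in perirenal adipose tissue (3.07 ± 0.14, FDR = 2.05e-15). In the subcutaneous depot LTBP2 averaged 86.7 CPM.

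The second comparison was between maternal diets within each tissue. None of the 8 genes passed FDR ≤0.05 in any of the 9 diet comparisons by edgeR's quasi-likelihood test. ITGB6 and ITGB8 did not pass the filter on low counts in perirenal adipose tissue, so 6 genes were tested there. The share of all genes at unadjusted p under 0.05 was not computed, so counts at that level, here and below, have no background beside them. Diet values are CPM scaled within the tissue. At FDR ≤0.20, ITGB4 was the gene past the threshold in muscle for CN vs. DG, ITGB1 and ITGB5 in muscle for CN vs. HY, TGFB2 in subcutaneous adipose tissue for DG vs. HY, and ITGB4 and ITGB5 in perirenal adipose tissue for CN vs. DG.

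**Figure D3:**
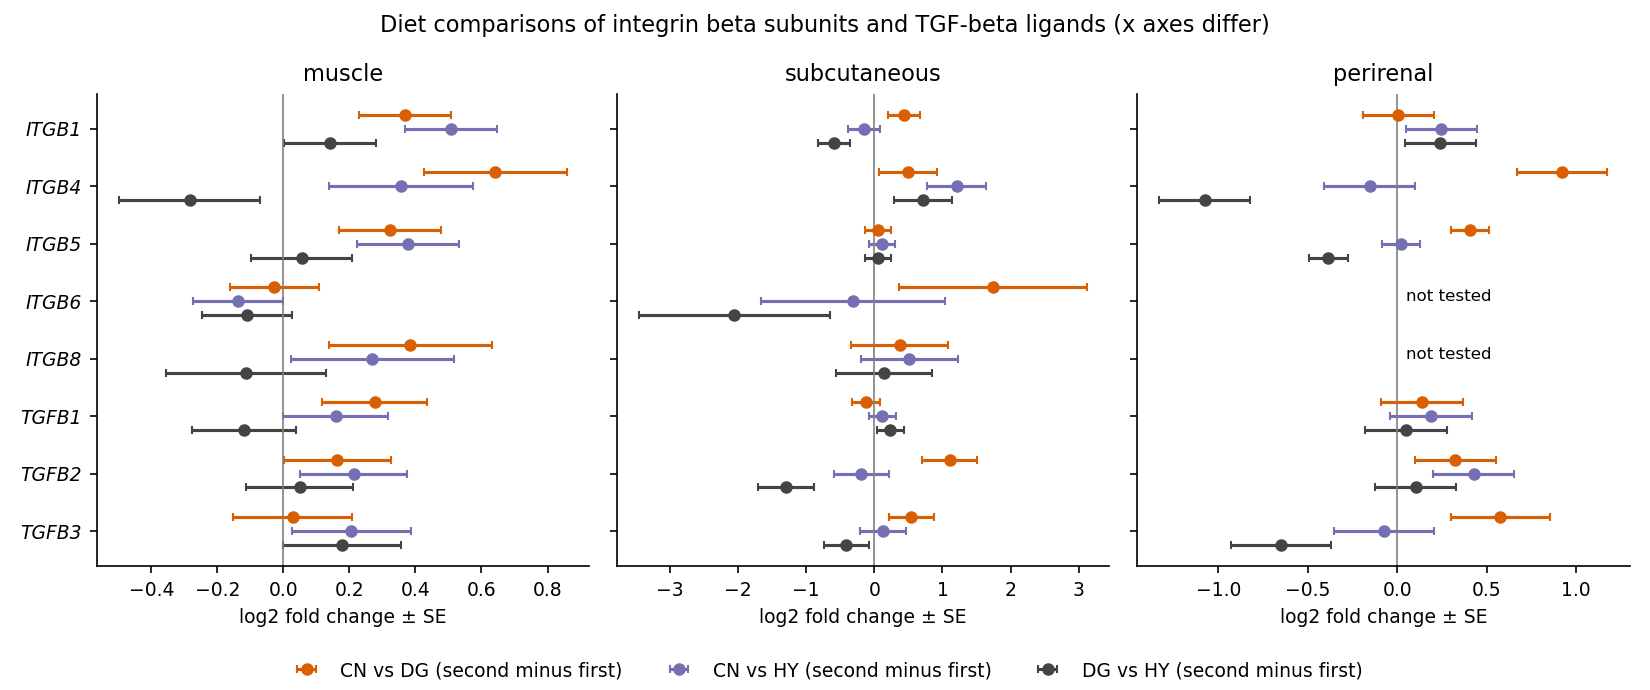
Log2 fold changes with their standard errors (x axis, a separate range in each panel) for 8 genes (y axis) in the 3 diet comparisons of each tissue, coded as the second diet minus the first. Values in muscle are mostly to the right of 0 for both comparisons with CN, as are values in both adipose depots for CN vs. DG. Perirenal ITGB4 and ITGB5 lie to the right of 0 for CN vs. DG and to the left for DG vs. HY. ITGB6 and ITGB8 were not tested in perirenal adipose tissue.

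In muscle, ITGB1 was 180.2, 257.7, 204.9 and 216.9 CPM in the CN pools F1, F2, M1 and M2. In the HY pools it was 313.9, 340.9, 276.7 and 291.4 CPM, and in the DG pools 227.1, 263.2, 331.1 and 287.8 CPM. All HY pools lay above all CN pools, and DG overlapped with both. For CN vs. HY the log2 fold change was 0.51 ± 0.14 (FDR = 0.0646), and for CN vs. DG it was 0.37 ± 0.14 (FDR = 0.225). The call for CN vs. HY depended on the setting, since FDR was 0.0133 by DESeq2, 0.0249 without CN F2 and 0.0357 without DG F1.

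ITGB4 in muscle was 10.99, 10.49, 9.10 and 12.5 CPM in CN, 23.5, 12.5, 19.6 and 11.8 CPM in DG, and 13.7, 17.1, 11.1 and 13.2 CPM in HY, in the order F1, F2, M1 and M2. The DG pools F1 and M1 stood above the rest, and the diets overlapped. The log2 fold change for CN vs. DG was 0.64 ± 0.22 (FDR = 0.178). ITGB5 in muscle had means of 26.6 ± 4.55 CPM in CN, 33.25 ± 3.13 CPM in DG and 34.5 ± 7.03 CPM in HY (SD, n = 4), with overlap of the pools and a log2 fold change for CN vs. HY of 0.38 ± 0.16 (FDR = 0.188).

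ITGB6 in muscle had means of 151.5 ± 31.9 CPM in CN, 148.7 ± 16.5 CPM in DG and 137.7 ± 8.44 CPM in HY (SD, n = 4), and its log2 fold changes of -0.03 ± 0.14 and -0.14 ± 0.14 against CN were within the spread of the pools. ITGB8 and the ligands had log2 fold changes from CN between 0.03 and 0.38 in DG and between 0.16 and 0.27 in HY, with FDR from 0.404 to 0.958 and from 0.491 to 0.616. At unadjusted p under 0.05, 2 of 8 genes passed in CN vs. DG, 2 in CN vs. HY and 0 in DG vs. HY. At FDR ≤0.05, DESeq2 called 0, 1 and 0 of the 8 genes, and 692, 1398 and 2 of all genes. By edgeR, 1.02%, 2.95% and 0.00% of the 18157 genes tested passed FDR ≤0.05 in these comparisons. At FDR ≤0.20, 7.01%, 16.0% and 0.00% passed, against 1, 2 and 0 of the 8 genes. The 8 genes had a median log2 fold change of 0.30 in DG and 0.24 in HY against CN, where all genes had -0.003 and -0.02. Both comparisons share the CN pools. For CN vs. DG the genes had medians of 0.46 in subcutaneous and 0.37 in perirenal adipose tissue (6 genes). All genes had -0.008 and -0.02 there. For CN vs. HY the medians in these depots were 0.12 and 0.11, and all genes had -0.02 and 0.009. Because the genes were listed with earlier results of these data known, their medians do not test a shift of the set.

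In subcutaneous adipose tissue, TGFB2 was 111.5, 134.1, 46.7 and 112.4 CPM in the DG pools F1, F2, M1 and M2. It was 39.0, 83.5, 30.8 and 34.5 CPM in CN and 24.9, 65.9, 32.2 and 41.9 CPM in HY. Of the DG pools 3 lay above all others, while DG M1 lay within the range of the other diets. On the log2 scale the change was 1.10 ± 0.41 for CN vs. DG (FDR = 0.278) and -1.29 ± 0.41 for DG vs. HY (FDR = 0.154). The skeletal muscle markers moved with the same pools, with sums of 902.6 CPM in DG M1 and medians of 62748.5 CPM in DG, 14246 CPM in CN and 12427 CPM in HY. With the marker level as a covariate the estimates were 0.91 ± 0.18 (FDR = 0.0385) and -0.96 ± 0.18 (FDR = 0.0399). Without the pools DG F1 and HY F2 they were 1.065 ± 0.40 (FDR = 0.343) and -1.505 ± 0.44 (FDR = 0.1027). Marker level and diet were not independent in these pools, so their parts in TGFB2 cannot be told apart, also with the covariate.

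ITGB6 in the subcutaneous pools F1, F2, M1 and M2 was 38.8, 105.8, 7.50 and 26.5 CPM in CN, 182.9, 212.6, 1.33 and 202.6 CPM in DG, and 1.73, 104.6, 3.79 and 33.8 CPM in HY. Of the DG pools 3 were above all other pools and DG M1 was the lowest of all 12. The log2 fold changes of 1.74 ± 1.38 for CN vs. DG (FDR = 0.523) and -2.06 ± 1.40 for DG vs. HY (FDR = 0.448) had wide errors. Without the pools DG F1 and HY F2 they were 1.64 ± 1.42 (FDR = 0.637) and -3.35 ± 1.68 (FDR = 0.266), and CN vs. HY went from -0.31 ± 1.35 (FDR = 0.993) to -1.71 ± 1.52 (FDR = 0.8845). With all 12 pools, the changes for CN vs. DG and DG vs. HY were 0.33 ± 0.33 (FDR = 0.626) and -1.004 ± 0.36 (FDR = 0.155) with the skeletal muscle marker level as a covariate. The marker level and the diet were not independent in these 12 pools, and their parts cannot be told apart.

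ITGB8 was 8.52, 30.0, 13.6 and 9.07 CPM in CN, 21.6, 23.4, 10.8 and 23.9 CPM in DG, and 5.10, 58.4, 6.27 and 17.8 CPM in HY, so that HY held both the lowest and the highest pool. Its log2 fold changes ranged from 0.14 to 0.51 with standard errors of 0.71, and FDR was 0.798 or above. Without the pools DG F1 and HY F2 the sign turned for CN vs. HY (-0.59 ± 0.55, FDR = 0.887) and DG vs. HY (-0.94 ± 0.58, FDR = 0.347). ITGB4 was 29.3, 15.2, 11.04 and 6.91 CPM in CN, 23.5, 16.4, 37.1 and 11.8 CPM in DG, and 28.6, 37.6, 30.0 and 49.1 CPM in HY, with the HY pools mostly above the rest and overlap in CN F1 and DG M1. The log2 fold change of ITGB4 was 1.21 ± 0.43 for CN vs. HY (FDR = 0.941) and 0.71 ± 0.43 for DG vs. HY (FDR = 0.387), and without DG F1 and HY F2 it was 1.25 ± 0.51 (FDR = 0.803) and 0.78 ± 0.55 (FDR = 0.4105).

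ITGB1 had means of 263.1 ± 50.3 CPM in CN, 355.6 ± 84.1 CPM in DG and 236.1 ± 61.3 CPM in HY (SD, n = 4), with a log2 fold change for DG vs. HY of -0.59 ± 0.24 (FDR = 0.219), or -0.68 ± 0.27 (FDR = 0.179) without DG F1 and HY F2. ITGB5, TGFB1 and TGFB3 had log2 fold changes between -0.41 and 0.54 over the 3 comparisons, with FDR from 0.424 to 0.984. At unadjusted p under 0.05, 1 of 8 genes passed in CN vs. DG, 1 in CN vs. HY and 2 in DG vs. HY. At FDR ≤0.05, DESeq2 called 0, 0 and 1 of the 8 genes, and 267, 0 and 905 of all genes. By edgeR, 0.00% of the 17745 genes tested passed FDR ≤0.05 in each comparison. At FDR ≤0.20, 10.9% passed in DG vs. HY, against 1 of the 8 genes.

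In perirenal adipose tissue, ITGB5 was 64.4, 67.7, 65.4 and 65.9 CPM in the DG pools F1, F2, M1 and M2. It was 48.1, 44.6, 52.0 and 54.2 CPM in CN and 54.9, 43.4, 50.6 and 52.8 CPM in HY. All DG pools lay above all CN and HY pools, and the SD of the DG pools was 1.38 CPM. By edgeR, its log2 fold change was 0.41 ± 0.11 for CN vs. DG (FDR = 0.173) and -0.39 ± 0.11 for DG vs. HY (FDR = 0.333). DESeq2 gave FDR = 0.0250 for CN vs. DG and 0.05405 for DG vs. HY.

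ITGB4 was 48.7, 52.1, 47.8 and 24.3 CPM in the perirenal DG pools F1, F2, M1 and M2, 28.6, 18.1, 22.7 and 21.8 CPM in CN, and 14.6, 16.4, 29.1 and 21.8 CPM in HY. Of the DG pools 3 were above all others, and DG M2 lay within the range of CN and HY. On the log2 scale the change was 0.92 ± 0.25 for CN vs. DG (FDR = 0.187) and -1.076 ± 0.25 for DG vs. HY (FDR = 0.284), with FDR of 0.0440 and 0.0189 by DESeq2. TGFB3 was 22.7, 20.5, 13.6 and 11.9 CPM in DG, 8.41, 10.4, 15.8 and 11.6 CPM in CN, and 8.24, 8.49, 17.0 and 9.90 CPM in HY, with overlap of the diets and a log2 fold change for DG vs. HY of -0.65 ± 0.28 (FDR = 0.469).

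**Figure D4:**
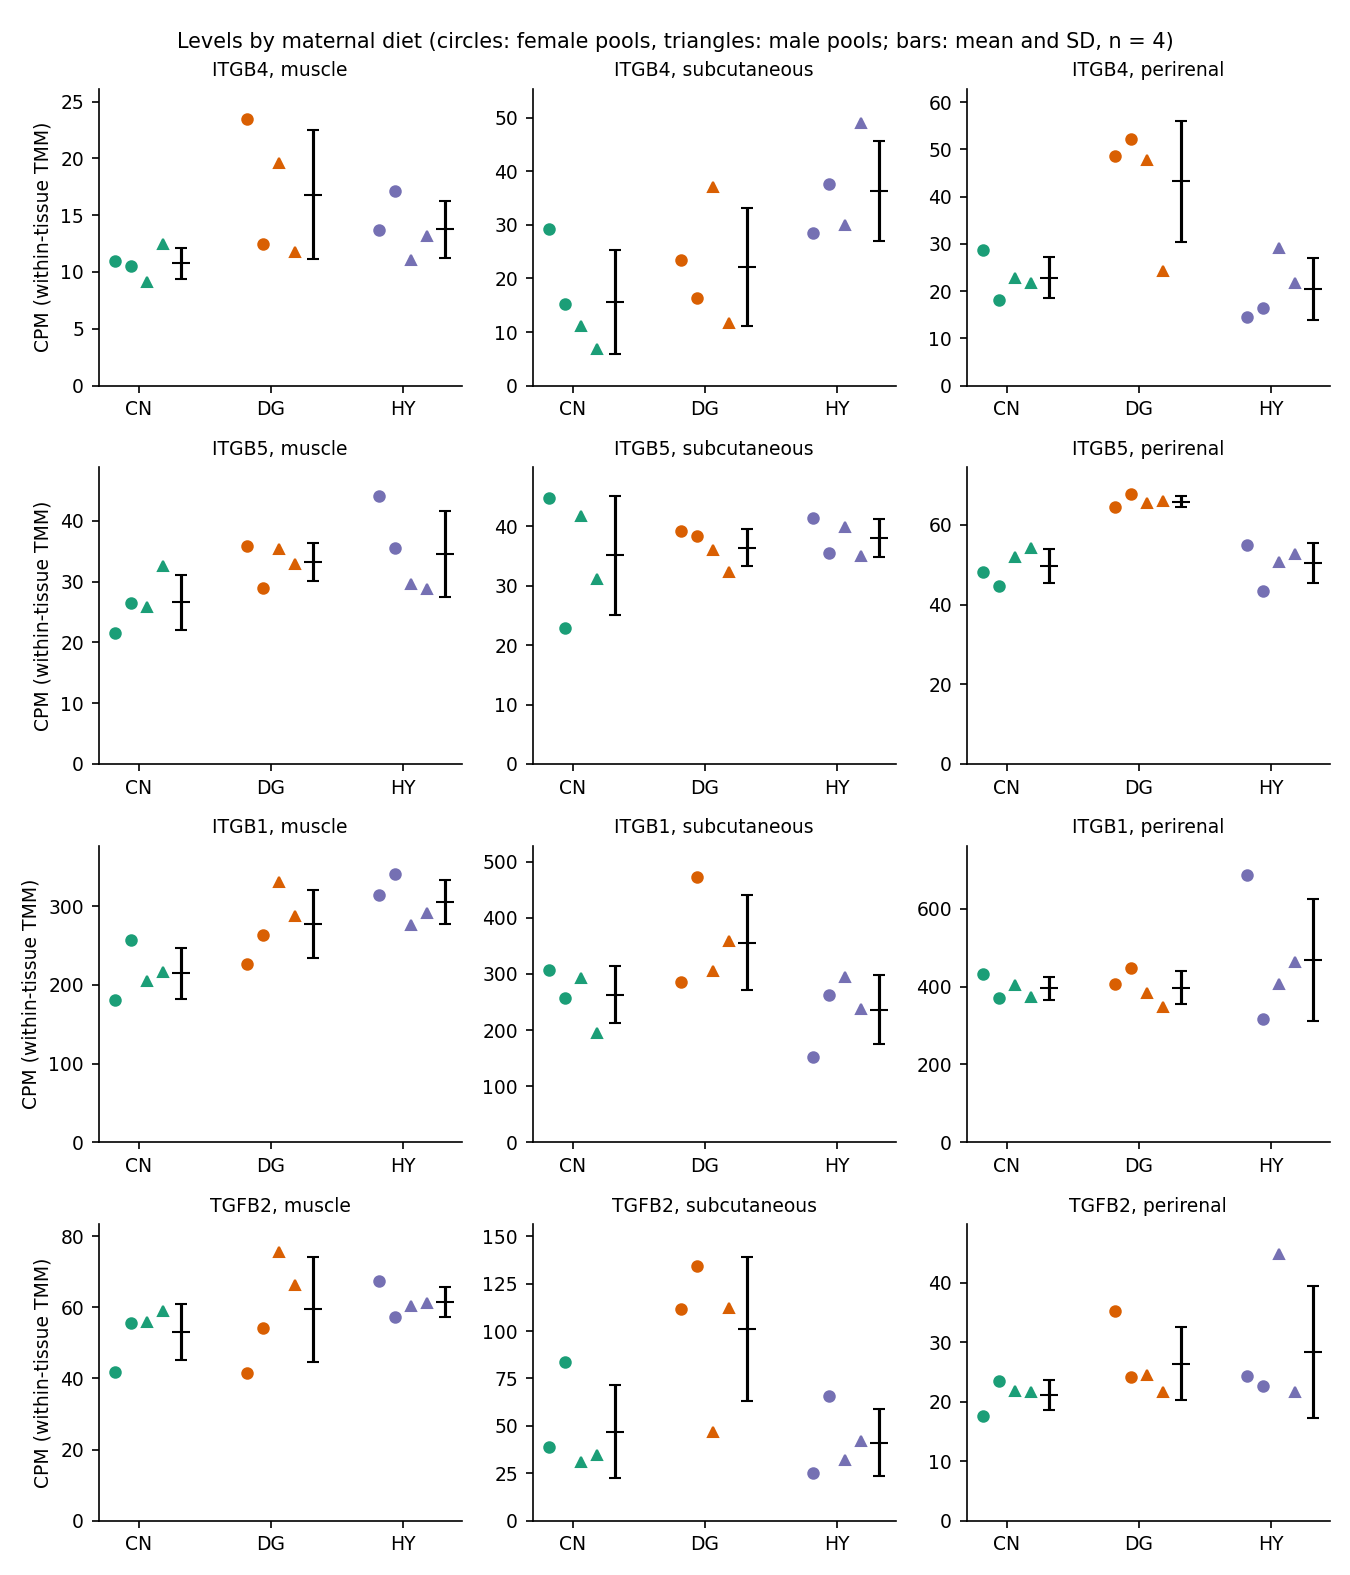
CPM scaled within each tissue (y axis, from 0, a separate range in each panel) of ITGB4, ITGB5, ITGB1 and TGFB2 (rows) by maternal diet (x axis) in the 3 tissues (columns). Circles are female pools, triangles are male pools, and bars give the mean and SD of 4 pools. Perirenal ITGB5 is 64.4 to 67.7 CPM in all DG pools and at most 54.9 CPM in CN and HY, while subcutaneous TGFB2 in DG spans 46.7 to 134.1 CPM.

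TGFB1, TGFB2 and ITGB1 had log2 fold changes between 0.01 and 0.43 over the 3 perirenal comparisons, with FDR from 0.6965 to 0.9996. The pool HY M1 was the highest of 12 for TGFB2, at 44.8 CPM, and HY F1 the highest for ITGB1, at 686.8 CPM. At unadjusted p under 0.05, 2 of 6 genes passed in CN vs. DG, 0 in CN vs. HY and 3 in DG vs. HY. At FDR ≤0.05, DESeq2 called 2, 0 and 1 of the 6 genes, and 248, 2 and 99 of all genes. By edgeR, 0.00% of the 17926 genes tested passed FDR ≤0.05 in each comparison. At FDR ≤0.20, 1.65% passed in CN vs. DG, against 2 of the 6 genes.

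Fibroblast and mesenchyme markers (6 of 7 found, none at 0 in all pools) varied among the same perirenal pools, with sums of 2747 to 5575 CPM in CN, 2237 to 8652 CPM in DG and 1987 to 6834 CPM in HY. The DG pool M2, the low pool for ITGB4, had the lowest sum of its diet. Over the 12 pools, r with the marker sum was 0.876 for TGFB3 (permutation p = 0.00034, adjusted 0.00238, rho = 0.825 with permutation p = 0.00166, adjusted 0.00775), and 0.7885 without the 2 farthest pools. For ITGB4 it was 0.709 (permutation p = 0.0123, adjusted 0.0342, rho = 0.671 with permutation p = 0.0207, adjusted 0.05785), and 0.651 without the 2 farthest pools. For TGFB2 it was 0.673 (permutation p = 0.0146, adjusted 0.0342, rho = 0.573 with permutation p = 0.0577, adjusted 0.1155), and 0.293 without them, so that relation rests on those pools. For ITGB5 it was 0.430 (permutation p = 0.162, adjusted 0.284, rho = 0.336 with permutation p = 0.287, adjusted 0.365, and 0.454 without the 2 farthest pools). The part of these cells in the diet values was not tested.

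**Figure D5:**
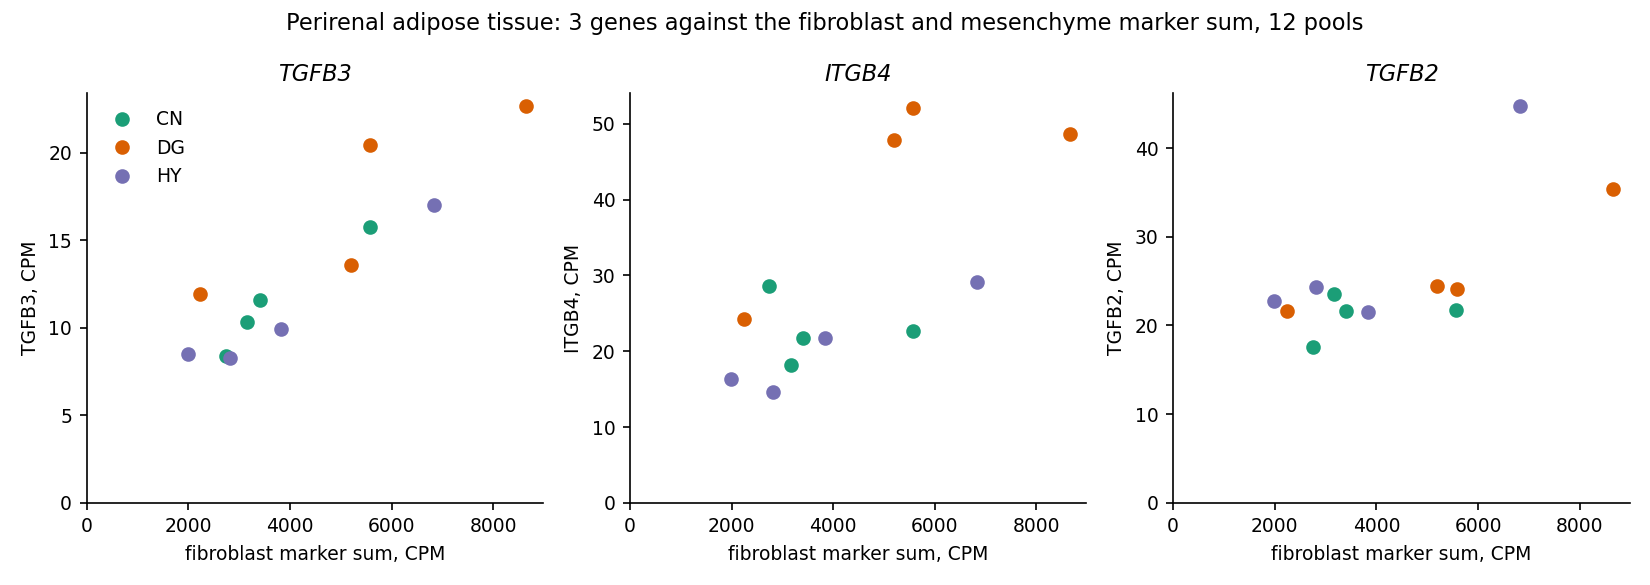
TGFB3, ITGB4 and TGFB2 in CPM scaled within perirenal adipose tissue (y axes) against the summed CPM of 6 fibroblast and mesenchyme markers (x axes). Each point is 1 of 12 pools, coloured by maternal diet. TGFB3 follows the marker sum with r = 0.876, and 3 of 4 DG pools lie above all others for ITGB4.

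Of 10609 named genes searched in the perirenal pools, those most like ITGB4 were LTBP3 (r = 0.942 on log2 CPM over 12 pools), EMILIN1 (r = 0.934) and PDLIM4 (r = 0.926). LTBP3 is a latent TGF-beta binding protein, EMILIN1 an elastic fiber glycoprotein and PDLIM4 an adaptor of the actin cytoskeleton. Their highest levels in these pools were 7.79, 4.984 and 4.6 CPM.

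The third comparison asked whether the diet differences themselves differed between tissues, as an interaction in the fit of all 36 libraries. ITGB4 was the 1 gene of the 8 past FDR ≤0.05, where the change from DG to HY differed between subcutaneous and perirenal adipose tissue by -1.90 ± 0.38 on the log2 scale (FDR = 0.0175). Mean ITGB4 went from 22.2 ± 11.1 CPM in DG to 36.3 ± 9.41 CPM in HY in subcutaneous adipose tissue and from 43.2 ± 12.8 CPM to 20.5 ± 6.53 CPM in perirenal adipose tissue (SD, n = 4). Of all genes, 6.26% passed FDR ≤0.05 in this contrast. The FDR was 0.0152 without the subcutaneous pools DG F1 and HY F2, but it was 0.132 without DG F2, 0.0730 without DG M2, 0.102 without HY F1 and 0.0581 without HY M2, each left out in all tissues.

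In the same contrast, where 23.6% of all genes passed FDR ≤0.20, TGFB2 gave 1.33 ± 0.44 (FDR = 0.0704), ITGB1 0.75 ± 0.30 (FDR = 0.124) and ITGB5 -0.49 ± 0.21 (FDR = 0.151). For TGFB2 the FDR was 0.0287 by DESeq2, 0.0463 with no block for the pool, 0.0306 without the subcutaneous pools DG F1 and HY F2, 0.0365 without DG M1 and 0.0201 without HY F2. Between muscle and subcutaneous adipose tissue the change from DG to HY differed by -1.30 ± 0.44 for TGFB2 (FDR = 0.147) and by 1.079 ± 0.38 for ITGB4 (FDR = 0.158), where 0.00% of all genes passed FDR ≤0.05 and 10.9% passed FDR ≤0.20. For TGFB2 this FDR was 0.0297 without DG M1, 0.0471 without HY F2 and 0.04935 without the subcutaneous pools DG F1 and HY F2. In this contrast 3 of 8 genes passed at unadjusted p under 0.05 and DESeq2 called 0. In the other 7 interaction contrasts 0 of 8 genes passed FDR ≤0.20 by edgeR, 0 to 2 passed at unadjusted p under 0.05, and DESeq2 called 0 at FDR ≤0.05. Of all genes, at most 0.0226% passed FDR ≤0.05 and 0.00% to 0.0753% passed FDR ≤0.20 there, with 0.0301% for CN vs. DG between muscle and subcutaneous adipose tissue. ITGB6 has no interpretable interaction with perirenal adipose tissue, where it has 1 count.

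The wider TGF-beta and integrin genes were counted over lists drawn up with these members and with earlier results of these data known. In muscle, the CN vs. HY comparison, where 2.95% of all genes passed, had calls at FDR ≤0.05 in 4 lists, all higher in HY. These were 3 of 19 genes of latency and activation (LTBP3, LTBP4 and the membrane protease MMP14), 1 of 16 TGF-beta target genes (the collagen COL5A1), 2 of 17 genes that link integrins to actin (TLN1 and PARVB), and 2 of 12 hemidesmosome and laminin genes (PLEC and LAMA5). Of 14 alpha subunits, 3 other beta subunits, 5 receptors and 13 SMAD relay genes, 0 passed by edgeR, with 1, 0, 2 and 2 at unadjusted p under 0.05. Over all genes the count of 536 ran from 30 to 1247 when 1 pool was left out. LTBP3 went from 4.04 ± 0.654 CPM in CN to 9.81 ± 2.28 CPM in HY (log2 fold change 1.28 ± 0.30, FDR = 0.0421). Talin 1 (TLN1), which binds integrin beta tails and activates them, went from 119.8 ± 15.9 to 166.2 ± 8.33 CPM (0.47 ± 0.10, FDR = 0.0311), and PARVB, an adaptor at the same sites, from 26.05 ± 5.53 to 46.9 ± 10.6 CPM (0.85 ± 0.19, FDR = 0.0338).

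For CN vs. DG in muscle, LTBP4 (1.07 ± 0.24, FDR = 0.0491), PLEC (0.87 ± 0.18, FDR = 0.0423) and LAMA5 (1.21 ± 0.23, FDR = 0.0275) passed FDR ≤0.05, all higher in DG. They were 1 of 19 genes of latency and activation and 2 of 12 hemidesmosome and laminin genes, where 1.02% of all genes passed, and the other 6 lists had 0 calls. Over all genes the count of 186 fell to 2 on the 8 pools compared and to 9 without 1 pool. Plectin (PLEC) ties ITGB4 to intermediate filaments and LAMA5 is a laminin chain of basement membranes. The receptor TGFBR2 went from 12.2 ± 2.89 CPM (CN) to 20.6 ± 3.95 CPM (HY) (0.76 ± 0.20, FDR = 0.0565). The median over genes that link integrins to actin was 0.27 in DG and 0.40 in HY, each against CN, next to -0.003 and -0.02 over all genes, with higher values than in CN for 15 of 17 genes in both.

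In perirenal adipose tissue, no gene of these lists passed FDR ≤0.05 by edgeR in a diet comparison. For CN vs. DG, 18 of 19 genes of latency and activation had higher values in DG (median 0.40 against -0.02 over all genes, 7 at unadjusted p under 0.05), and so did 15 of 16 TGF-beta target genes (median 0.44, 4 at unadjusted p under 0.05). For DG vs. HY, which shares the DG pools, 1 of 19 and 2 of 16 had higher values in HY, with medians of -0.43 and -0.44 against 0.02 over all genes. DCN, COL1A1, COL1A2 and COL3A1 stand both in these lists and among the fibroblast markers above. LTBP4 averaged 48.8 ± 5.59 CPM (CN) and 94.6 ± 12.9 CPM (DG) (0.95 ± 0.19, FDR = 0.0735), LAMA5 13.6 ± 3.51 and 31.7 ± 4.44 CPM (1.225 ± 0.19, FDR = 0.0518) and the focal adhesion protein ZYX 13.6 ± 2.47 and 26.6 ± 3.21 CPM (0.96 ± 0.17, FDR = 0.0650).

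In subcutaneous adipose tissue, no listed gene passed FDR ≤0.05 either. At FDR ≤0.20 for DG vs. HY, which 10.9% of all genes passed, 4 of 13 SMAD relay genes were lower in HY. Of the other lists, 2 of 15 alpha subunits, 1 of 3 other beta subunits, 2 of 19 genes of latency and activation, 1 of 5 receptors, 1 of 16 target genes, 3 of 18 genes that link integrins to actin and 0 of 13 hemidesmosome and laminin genes passed. Among the SMAD relay genes was SMAD4 with 199.3 ± 17.3 CPM in DG and 144.4 ± 2.19 CPM in HY (-0.47 ± 0.12, FDR = 0.115). The alpha subunits ITGA9 (84.9 ± 22.5 and 38.5 ± 14.0 CPM, FDR = 0.115) and ITGA7 (468.5 ± 31.8 and 986.7 ± 259.6 CPM, FDR = 0.126) lay on opposite sides. For the difference of DG vs. HY between the adipose depots, where ITGB4 passed, ITGA7 (-1.52 ± 0.35, FDR = 0.0236), ITGA9 (1.05 ± 0.30, FDR = 0.0433), LTBP4 (-1.40 ± 0.39, FDR = 0.0369), LAMA5 (-1.66 ± 0.46, FDR = 0.0374), BMP1 (-1.25 ± 0.29, FDR = 0.0246), TLN1 (-0.76 ± 0.19, FDR = 0.0280), SMAD4 (0.60 ± 0.15, FDR = 0.0280), SMURF2 (0.79 ± 0.21, FDR = 0.0357), BAMBI (-1.89 ± 0.45, FDR = 0.0255) and FERMT3 (-2.10 ± 0.56, FDR = 0.0325) passed as well, and were named after their values were seen. They were 2 of 14 alpha subunits, 2 of 19 genes of latency and activation, 3 of 13 SMAD relay genes, 2 of 17 genes that link integrins to actin and 1 of 14 hemidesmosome and laminin genes, with 0 of 3 other beta subunits, 0 of 5 receptors and 0 of 16 target genes, where 6.26% of all genes passed.

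Female and male pools were compared with the diet in the model. None of the genes passed FDR ≤0.05 in any tissue by edgeR, and DESeq2 called 0. At unadjusted p under 0.05, TGFB2 passed in muscle (male minus female 0.26 ± 0.12, FDR = 0.938) and 0 genes passed in both adipose depots, where the shares of all genes past FDR ≤0.05 were 0.00% (subcutaneous) and 0.0223% (perirenal), with 0.00% in muscle.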

How the data were processed

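RNA-Seq was done on single-end reads of pooled fetal RNA from 3 tissues. Per the methods of the study, the authors aligned reads to Oar_v3.1 with TopHat2 2.0.4 (at most 2 mismatches and 40 alignments per read), assembled transcripts with Cufflinks 2.1.1 and merged the assemblies with the sheep annotation by cuffmerge. Locus ends differ between the tissues' tables. The submitters' processing notes also name HTSeq. The deposited values are raw counts per locus and pool, with the gene name and position. Options of the counting (strand, reads with several alignments) are not given in the sources used here.

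Counts of loci with the same name were summed. Genes were filtered (filterByExpr, minimum count 10, minimum total count 15), scaled by TMM and tested with edgeR 4.0.16 (quasi-likelihood, robust) in R 4.3.3, with Benjamini-Hochberg adjustment over all genes tested. Diets were compared on the 12 pools of a tissue, and tissues and interactions on 36 libraries, over the 13283 genes named in all tissues, with the pool as a block. The block rests on the same fetuses, as the study describes, and deviations of same-named pools of different tissues had a mean r of 0.085, against -0.028 for other pools. Standard errors are approximate (log2 fold change over the root of F). Correlations used log2(CPM + 0.1) of the gene and log2 of the marker sum, with two-sided permutation tests. The named genes were the listed members, up to 4 genes of each pathway list with the smallest p over the diet comparisons, those past FDR 0.05 in one, and the 3 genes most like a member, and other names are marked as chosen after their values were seen. DESeq2 1.42.0, other scalings, filters, blocks, a marker covariate and leaving out pools were alternatives. All libraries were used. Scripts were tested on simulated data. The members, the lists and the tests were chosen with earlier results of these data known.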

Additional observations from a re-analysis of the deposited data

Results flagged for a closer look

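Within groups of 4 pools, single pools stood far from the other pools in 7 of 70 groups checked, where chance gives about 1 in 20, and diet values are CPM scaled within the tissue. In subcutaneous adipose tissue, ITGB6 was 1.33 CPM in DG M1 against 182.9 to 212.6 CPM in the other DG pools, TGFB1 was 32.6 CPM in CN F1 against 20.3 to 22.1 CPM, and TGFB2 was 83.5 CPM in CN F2 against 30.8 to 39.0 CPM. In perirenal adipose tissue, ITGB4 was 24.3 CPM in DG M2 against 47.8 to 52.1 CPM, TGFB1 was 48.2 CPM in HY F1 against 38.2 to 39.8 CPM, and TGFB2 was 44.8 CPM in HY M1 against 21.6 to 24.4 CPM. ITGB6 was 0.0885 CPM in the perirenal pool CN M2, which is 1 count, and 0 in the other CN pools, so that flag was fixed by 1 count. The rate of 1 in 20 holds for independent groups, whereas the same pools recur across the genes.

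The change of ITGB4 from DG to HY differed between subcutaneous and perirenal adipose tissue by -1.90 ± 0.38 on the log2 scale (FDR = 0.0175 by edgeR), and this call was lost without any 1 of DG F2, DG M2, HY F1 and HY M2 (FDR from 0.0581 to 0.132).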

How the results depend on the processing

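Of 382 counts of genes called under alternative settings, 361 stayed at or close to the main count and 21 moved further. The close ones include counts between muscle and perirenal adipose tissue, where ITGB1 passed in 10 of 17 alternatives. Of 899 values of single genes, 862 kept direction and side of the threshold, 19 moved past it, 11 lost it and 7 changed sign. DESeq2 called 1 gene in muscle for CN vs. HY, 1 in subcutaneous adipose tissue for DG vs. HY, 2 in perirenal adipose tissue for CN vs. DG, 1 for DG vs. HY, and 2 for the difference of DG vs. HY between the adipose depots (1 in the main test). With the skeletal muscle marker level as a covariate, 1 gene was called in subcutaneous adipose tissue for CN vs. DG and 1 for DG vs. HY. With the replicate block within a tissue, 1 gene was called in subcutaneous adipose tissue for DG vs. HY (TGFB2, FDR = 0.0429), and same-numbered pools of different diets had mean r of -0.044, 0.191 and 0.055 in muscle, subcutaneous and perirenal adipose tissue, so the numbers were not read as pairs. With no replicate block in the fit of all libraries, 2 genes were called for the difference of DG vs. HY between the depots, and the block changed no other count. Without the subcutaneous pools DG F1 and HY F2, chosen after seeing the data, 2 genes were called for that difference and 1 for the difference between muscle and subcutaneous adipose tissue. Leaving out 1 pool gave 0 to 1 genes in muscle for CN vs. HY, 0 to 1 for the difference of DG vs. HY between muscle and subcutaneous adipose tissue, and 0 to 3 between the depots. Sign changed when 1 pool was left out for ITGB6 in subcutaneous CN vs. HY (-1.77 to 0.57, with 0.57 without CN F2, 0.08 without HY F1 and 0.06 without HY M1), ITGB5 between muscle and subcutaneous adipose tissue (-0.029 without CN F1, up to 0.1065), TGFB1 between them (-0.018 without DG M1, up to 0.087) and ITGB4 between the depots (-0.014 without CN M2, -0.034 without HY M1, up to 0.158). The cause was not tested.

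Counts over all genes moved more. In muscle, 186 genes were called for CN vs. DG (692 by DESeq2, 2 on the 8 pools compared, 9 to 340 without 1 pool) and 536 for CN vs. HY (1398 by DESeq2, 270 with the replicate block, 30 to 1247 without 1 pool). In subcutaneous adipose tissue 0 were called for CN vs. DG (267 by DESeq2, 148 with the covariate) and 0 for DG vs. HY (905 by DESeq2, 281 with the replicate block, 260 with the covariate, 101 without the pools DG F1 and HY F2). In perirenal adipose tissue 0 were called for CN vs. DG (248 by DESeq2, 35 with no filter) and 0 for DG vs. HY (99 by DESeq2). For the difference of DG vs. HY between the depots, 831 were called (1466 by DESeq2, 515 with no filter, 1680 without the pools DG F1 and HY F2, 0 to 1869 without 1 pool). Perirenal ITGB6 (1 count) and ITGB8 (56 counts) were too low to test a diet difference at this depth.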
